A study of Schizosaccharomyces pombe with 9 samples.

Results

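The genes described here encode subunits and assembly factors of the mitochondrial respiratory chain and ATP synthase, enzymes of coenzyme Q synthesis, and parts of the machinery that imports proteins into mitochondria of the fission yeast Schizosaccharomyces pombe. They were taken by symbol alone: every S. pombe probe set whose gene symbol was cox, qcr, atp, sdh, cyt, cyc, cor, coq, nde, ndi, rip, tim or tom followed by a number. That gave 69 genes with 1 probe set each, out of 2937 S. pombe probe sets among the 10928 probe sets of the array table. The rule used no expression value, but it was chosen with earlier results of these data known, as were the role groups used below. The current annotation (ASM294v3) holds 97 genes with a symbol of this form. Of those outside the 69, coq8, which the array table calls abc1, is given with a comparison list. It lists the gene called sdh4 on the array as tim18 and the gene called tim40 as mia40.

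RNA was measured on 9 Affymetrix arrays, 3 biological replicates for each of 3 strains. WT was strain SPQ-01. SD1 was SPQ-01 without rpl32-1, which the current annotation calls rpl3201. SD2 was SPQ-01 without rpl32-2, now rpl3202. These paralogs encode the same protein of the large ribosomal subunit, L32. All strains grew in YEPD, a rich glucose medium, at 30 °C to an OD600 of 5.0, a stage that the labels call log phase. The genotype of SPQ-01, the way the deletions were made and the number of clones behind each strain were not given in the sources used here. The series concerns cells that flocculate (clump together) without mating.

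In the respiratory chain, electrons pass from donors such as succinate to coenzyme Q, a lipid carrier in the inner membrane, then through the cytochrome bc1 complex and cytochrome c to cytochrome c oxidase, and the proton gradient built on the way drives ATP synthase. S. pombe has no proton-pumping complex I, so succinate dehydrogenase and single-protein NADH dehydrogenases feed the coenzyme Q pool. Most mitochondrial proteins are made in the cytosol and cross the outer membrane through the TOM complex, after which the TIM23 complex and its motor draw in proteins with a cleavable presequence, the TIM22 complex inserts carrier proteins, the small TIM proteins act as chaperones between the membranes, and Tim40 (Mia40) folds small cysteine-rich proteins there.

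Values are log2 expression, 1 per probe set and array, and a difference of 1 is a 2-fold change. Errors of differences are standard errors (SE) of the limma fit with n = 3 arrays per strain, and a gene was called higher or lower at a Benjamini-Hochberg adjusted p under 0.05 over the 2937 S. pombe probe sets. Both deletions were compared with the same 3 WT arrays, so their differences from WT are not independent. The deleted genes matched the labels: rpl3201 read 4.17, 6.04 and 4.9 in SD1 against 13.88 to 14.45 in WT, and rpl3202 read 7.25, 8.89 and 7.88 in SD2 against 14.11 to 14.38. Every one of the 69 genes lay, on each array, above the level under which 95% of the S. cerevisiae probe sets fell (mean 5.17), and 60 of them lay above the median S. pombe probe set in mean level. In bulk RNA, fewer cells that express a gene and less RNA per cell cannot be told apart. Replicates 1, 2 and 3 of the strains are called arrays 1, 2 and 3 below.

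Against WT, 19 of the 69 genes were lower and 6 higher in SD1, and 11 were lower and 4 higher in SD2. Over all S. pombe probe sets, 23.7% were called lower and 19.5% higher in SD1, and 14.3% lower and 17.6% higher in SD2. These shares are the background for the counts of every group below. The members' shares were 27.5% lower and 8.7% higher in SD1 and 15.9% lower and 5.8% higher in SD2, so the shares called lower lay near the background. The median difference was -0.14 in SD1 and -0.08 in SD2, beside -0.03 and 0.01 over all probe sets. Within replicate numbers 1, 2 and 3 the members' median was -0.06, -0.23 and -0.08 in SD1. In SD2 it was 0, -0.23 and -0.02, so the SD2 shift lay mostly in the arrays numbered 2. The counts by role are given below, and the plot of every gene by role shows genes of 1 role on both sides of 0 in several groups. Of the 32 genes of the electron transfer chain and coenzyme Q synthesis, 14 were lower and 0 higher in SD1 (median -0.30). Of the 19 import genes 3 were lower and 4 higher in SD1 (median 0.05). The 11 genes lower and the 4 higher in SD2 were all called the same way in SD1, and 13.8% and 16.3% of all probe sets were called lower and higher in both. All 3 SD1 arrays lay below all 3 WT arrays in 23 genes and above them in 7, beside 28.6% and 23.3% of all probe sets. For SD2 these counts were 13 and 9, beside 20.2% and 23.1%. On removal of SD1 array 3, 12 genes were called lower in SD1, and on removal of WT array 3 or any 1 SD2 array, 2 were called higher in SD2.

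**Figure D1:**
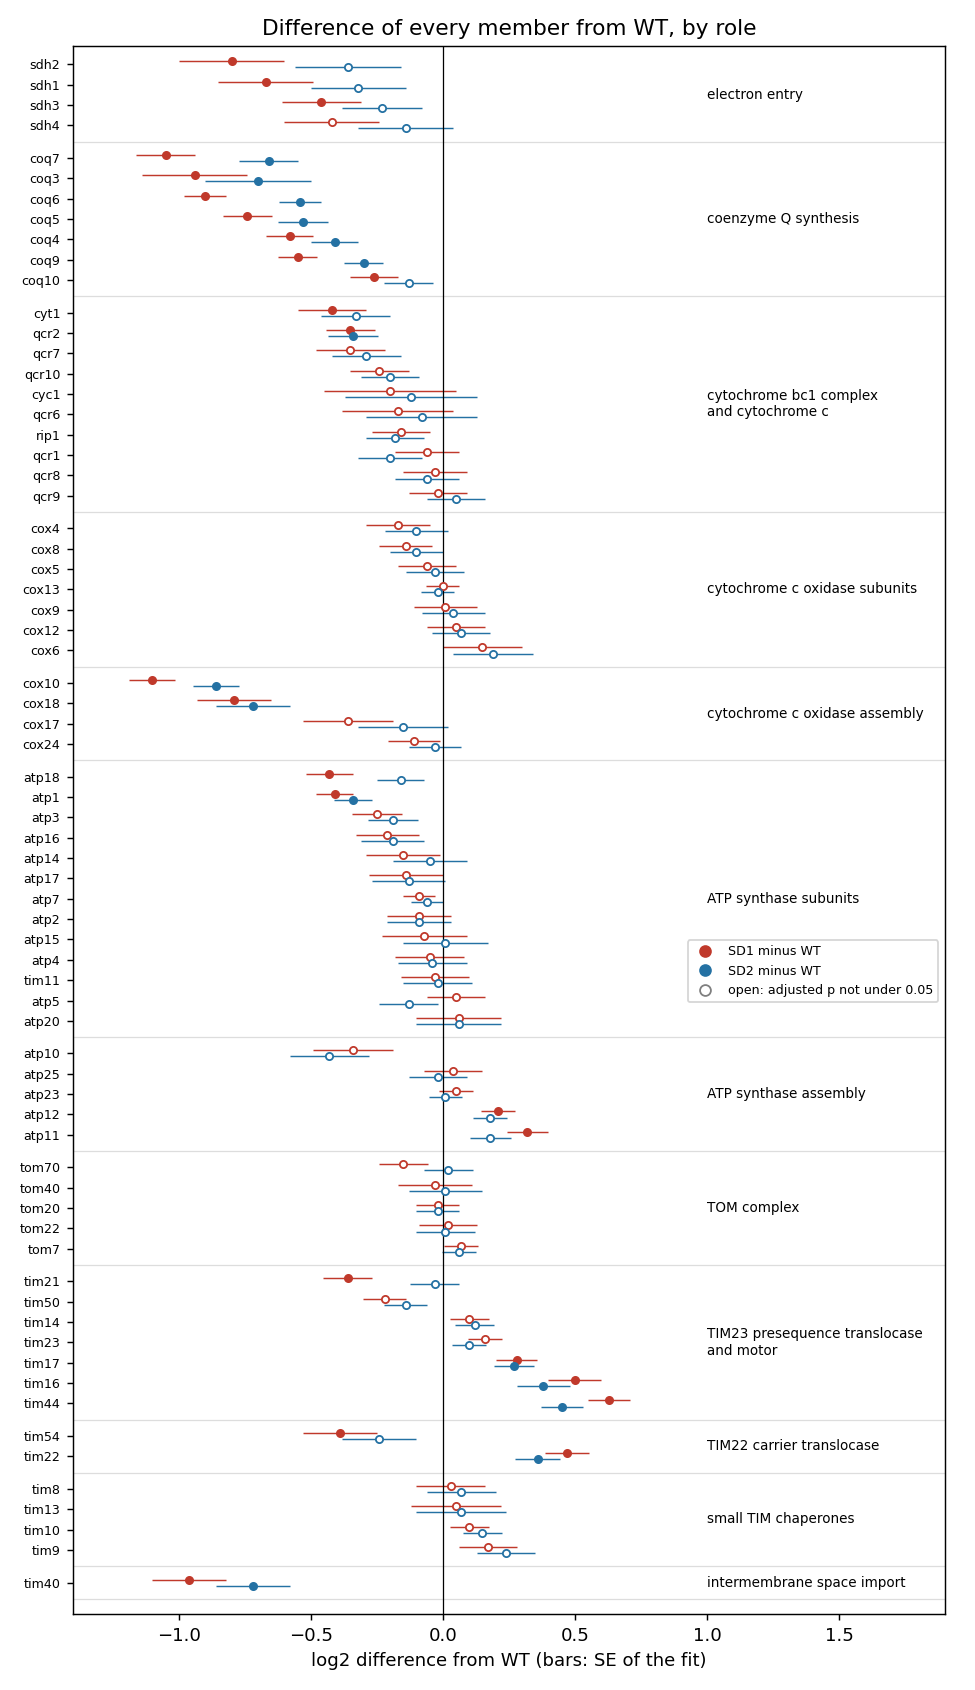
Log2 difference from WT of each of the 69 genes, grouped by role, in SD1 (red) and SD2 (blue), with bars of 1 SE of the fit (n = 3 arrays per strain); filled points were called at an adjusted p under 0.05 and open points were not. All 7 coenzyme Q genes lie left of 0 in both deletions, the 7 cytochrome c oxidase subunits lie near 0, and tim44, tim16, tim22 and tim17 lie right of it.

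Coenzyme Q synthesis was the role group with the most genes lower. All 7 measured genes were lower in SD1 (median -0.74) and 6 of 7 were lower in SD2 (median -0.53). Within the arrays of each replicate number the SD1 median was -0.71, -0.78 and -0.71, and the SD2 median was -0.50, -0.61 and -0.48. The group holds the methyltransferase genes coq3 and coq5, the hydroxylase genes coq6 and coq7, coq4, whose product holds the enzymes together in a complex, coq9, whose product binds lipid and assists Coq7, and coq10, whose product binds the finished coenzyme Q.

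The hydroxylase gene coq7 (SPBC337.15C) read 12.08, 12.20 and 11.83 in WT, 11.06, 10.95 and 10.95 in SD1, and 11.49, 11.30 and 11.33 in SD2. The 3 strains did not overlap, with WT highest and SD1 lowest. It was 2.07-fold lower in SD1 (log2 -1.05 ± 0.11, adjusted p = 0.000167) and 1.58-fold lower in SD2 (-0.66 ± 0.11, adjusted p = 0.00223). The gene for the other hydroxylase, coq6 (SPBC146.12), read 11.50, 11.67 and 11.50 in WT, 10.63, 10.68 and 10.66 in SD1, and 10.94, 11.12 and 10.97 in SD2. Again every SD2 array lay between the SD1 and the WT arrays, and the arrays of SD1 lay within a narrow band. It was 1.86-fold lower in SD1 (log2 -0.90 ± 0.079, adjusted p = 0.000119) and 1.46-fold lower in SD2 (-0.54 ± 0.079, adjusted p = 0.00143).

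The methyltransferase genes showed a similar order with different spreads. The values of coq5 were 11.89, 11.84 and 11.67 in WT, 11.18, 11.05 and 10.96 in SD1, and 11.39, 11.23 and 11.19 in SD2. For coq3 they were 10.61, 11.32 and 11.05 in WT, 9.76, 10.24 and 10.16 in SD1, and 10.03, 10.44 and 10.41 in SD2. Both deletions lay below all WT arrays for each gene, but the spread of coq3 within a strain was wider and its SD1 and SD2 arrays overlapped. The fall of coq5 was 1.67-fold in SD1 (log2 -0.74 ± 0.094, adjusted p = 0.000441) and 1.44-fold in SD2 (adjusted p = 0.00375). That of coq3 was 1.92-fold in SD1 (log2 -0.94 ± 0.20, adjusted p = 0.0063) and 1.62-fold in SD2 (log2 -0.70, adjusted p = 0.0303). The SD2 call of coq3 was lost on removal of WT array 2, WT array 3 or any 1 SD2 array (adjusted p up to 0.104).

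The remaining genes of the group moved less. For coq4, WT arrays read 11.28, 11.57 and 11.35, SD1 arrays 10.74, 10.89 and 10.81, and SD2 arrays 10.96, 10.96 and 11.05. For coq9 the values were 11.88, 12.08 and 11.90 in WT, 11.39, 11.39 and 11.42 in SD1, and 11.62, 11.69 and 11.64 in SD2. Neither gene had any overlap between the 3 strains. The log2 difference of coq4 was -0.58 ± 0.090 in SD1 (adjusted p = 0.00111) and -0.41 in SD2 (adjusted p = 0.00959), and that of coq9 was -0.55 ± 0.073 in SD1 (adjusted p = 0.000521) and -0.30 in SD2 (adjusted p = 0.0144). The least change was in coq10, at -0.26 ± 0.091 in SD1 (adjusted p = 0.0497) and -0.13 in SD2 (adjusted p = 0.309). On removal of SD2 array 3 the SD2 call of coq9 was lost (adjusted p = 0.052), and the SD1 call of coq10 was lost on removal of any single array other than WT array 1 (adjusted p up to 0.128).

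Other genes of the pathway were outside the 69 because the array table gives them other symbols. The kinase-like gene coq8, which the table calls abc1, was lower in both deletions (log2 -0.66, adjusted p = 0.000208 in SD1; -0.36, adjusted p = 0.00585 in SD2). Both genes for the synthase of the decaprenyl side chain were lower too: dlp1 at -0.79 in SD1 and -0.58 in SD2 (adjusted p = 0.000283 and 0.00216), and dps1 at -0.63 and -0.47 (adjusted p = 0.00537 and 0.0256). The gene for the prenyltransferase that joins side chain and ring, ppt1, was lower in SD1 (-0.56, adjusted p = 0.00994) and measured -0.36 in SD2 (adjusted p = 0.0748). The SD2 call of dps1 was lost on removal of WT array 2, SD2 array 2 or SD2 array 3 (adjusted p up to 0.0863).

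**Figure D2:**
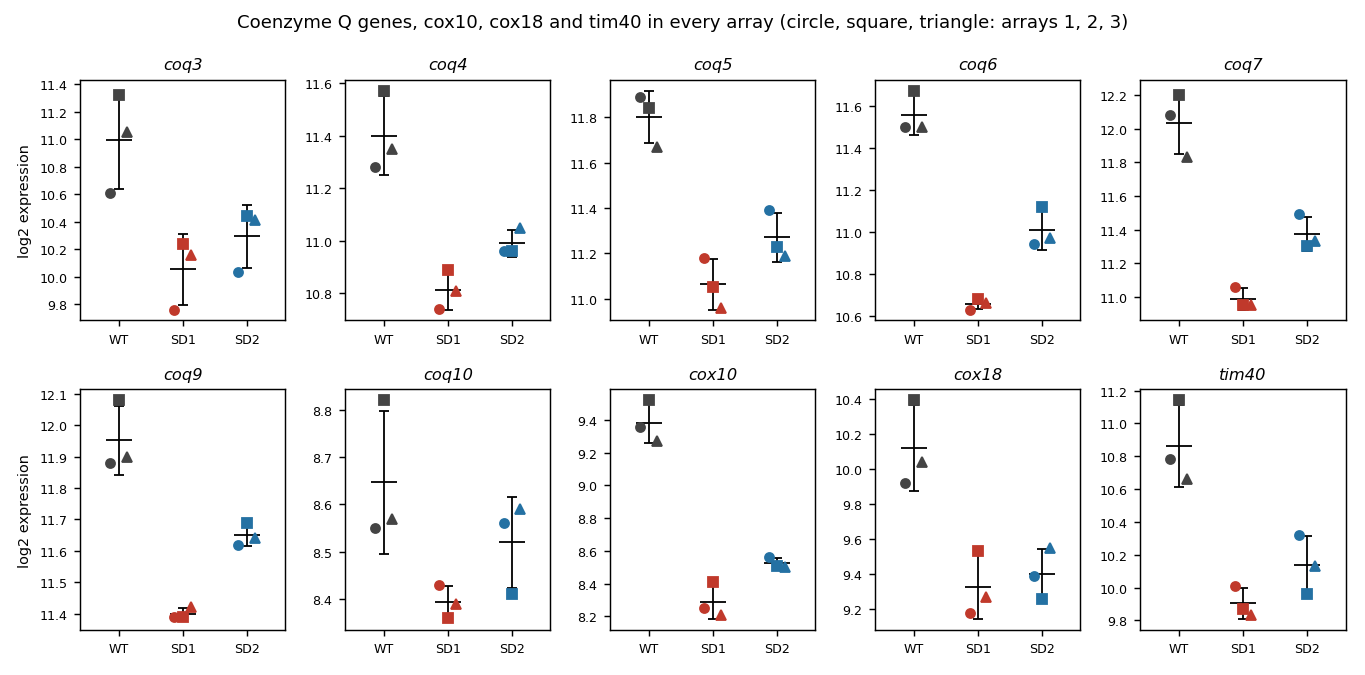
Log2 expression in every array of the 7 coenzyme Q genes, cox10, cox18 and tim40, with circles, squares and triangles for arrays 1, 2 and 3 of each strain, the mean as a horizontal line and the SD as a bar (n = 3); each panel has its own vertical range, which does not start at 0. In 5 of the 7 coenzyme Q genes and in cox10 the 3 SD2 arrays lie wholly between the SD1 and WT arrays.

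The electron entry genes measured were those of succinate dehydrogenase, which also belongs to the citrate cycle. Of the 4 genes 3 were lower in SD1 (median -0.56) and 0 were called in SD2 (median -0.28). The iron-sulphur subunit gene sdh2 (SPAC140.01) read 13.15, 13.17 and 12.72 in WT, 12.60, 11.84 and 12.20 in SD1, and 12.88, 12.59 and 12.48 in SD2. All SD1 arrays lay below all WT arrays, SD1 array 2 lowest, while the SD2 arrays overlapped both other strains. The difference was -0.80 ± 0.20 in SD1 (adjusted p = 0.0132) and -0.36 ± 0.20 in SD2 (adjusted p = 0.212). The flavoprotein gene sdh1 measured 13.37, 13.33 and 12.97 in WT, 12.88, 12.24 and 12.54 in SD1, and 13.12, 12.85 and 12.74 in SD2. Again all SD1 arrays lay below all WT arrays, SD1 array 2 lowest, and the SD2 arrays overlapped both. It was 1.59-fold lower in SD1 (log2 -0.67 ± 0.18, adjusted p = 0.0166) and stood at -0.32 in SD2 (adjusted p = 0.213). The membrane anchor gene sdh3 was lower in SD1 by the test (-0.46 ± 0.15, adjusted p = 0.0352), although 1 SD1 array at 12.80 lay above 1 WT array at 12.79. The gene called sdh4 measured -0.42 in SD1 (adjusted p = 0.0853) and -0.14 in SD2 (adjusted p = 0.582). Leaving out WT array 2, SD1 array 2 or SD1 array 3 ended the SD1 calls of sdh1 (adjusted p up to 0.0583) and sdh3, and leaving out WT array 1 or SD2 array 2 also ended that of sdh3 (adjusted p up to 0.111). The SD1 median within each replicate number was -0.38, -1.02 and -0.35, so arrays numbered 2 showed the largest difference.

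Genes of iron uptake differed between the same strains. Of 8 measured iron acquisition genes 5 were higher and 1 lower in SD1, and 2 were higher and 1 lower in SD2. The shares were 62.5% and 12.5% in SD1, beside 19.5% and 23.7% of all probe sets. In SD2 they were 25% and 12.5%, near the 17.6% and 14.3% of all probe sets. Within replicate numbers 1, 2 and 3 the median over the 8 was 0.88, 3.19 and 0.82 in SD1. In SD2 it was -0.14, 1.52 and -0.11, above 0 in the arrays numbered 2 alone. The mean level over the 8 genes was 8.26 to 9.24 on the WT arrays, 10.29 to 10.89 on the SD1 arrays and 9.15 to 9.57 on the SD2 arrays. The iron permease gene fip1 read 8.16, 7.27 and 8.24 in WT, 10.92, 10.71 and 11.08 in SD1, and 8.62, 9.31 and 8.83 in SD2. Its partner, the ferroxidase gene fio1, read 8.89, 7.75 and 9.20 in WT, 11.02, 11.41 and 11.23 in SD1, and 9.05, 10.07 and 9.36 in SD2. WT array 2 was the lowest WT array for both genes and the highest WT array for sdh4. For sdh2 and sdh3 it barely differed from WT array 1 (13.17 beside 13.15, and 13.08 beside 13.07), and sdh1 was highest on WT array 1. SD1 array 2 was the highest of its strain for fio1 and the lowest for fip1. The same array, the lowest of SD1 for all 4 succinate dehydrogenase genes, read 11.18 for php4 beside 9.93 and 10.52 on the other SD1 arrays. Php4 is the subunit through which the CCAAT-binding complex represses iron-using genes when iron is scarce, and php4 was picked out after its values were seen (difference 0.45 in SD1, adjusted p = 0.256; -0.16 in SD2). Of the 6 genes of this complex and of iron regulators, 1 was higher and 1 lower in SD1, and 1 was lower in SD2. The regulator gene grx4 was higher in SD1 (0.68, adjusted p = 0.0122). The subunit gene php2 was lower in SD1 (-0.74, adjusted p = 0.00306) and SD2 (-0.52, adjusted p = 0.0225). Its SD2 call was lost on removal of any 1 SD2 array (adjusted p up to 0.0604). For fip1 the SD2 call was lost on removal of SD2 array 2 (adjusted p = 0.0688). The part of iron supply in the succinate dehydrogenase values was not tested.

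**Figure D3:**
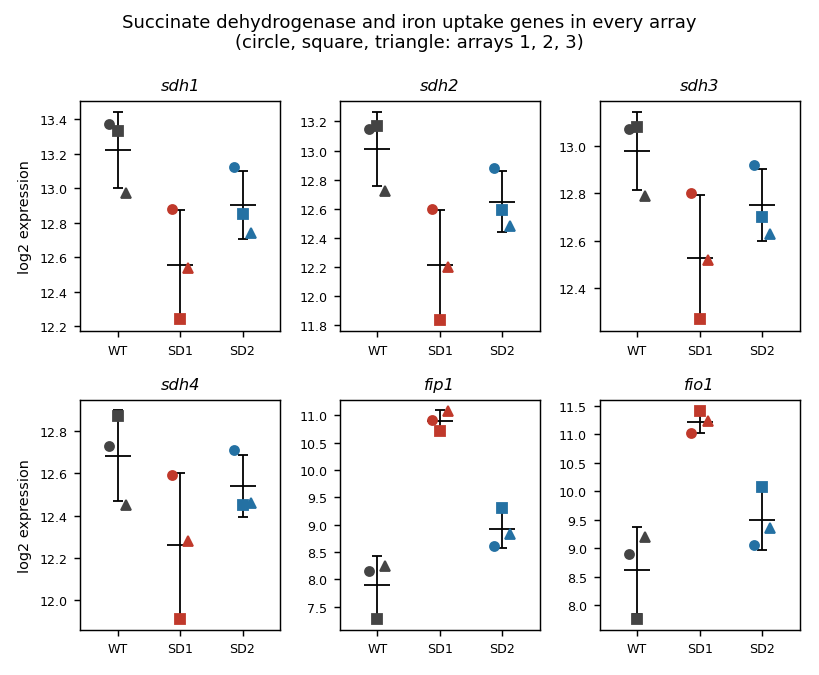
Log2 expression in every array of sdh1, sdh2, sdh3 and sdh4 and of the iron uptake genes fip1 and fio1, drawn as circles, squares and triangles for arrays 1, 2 and 3, with the mean as a line and the SD as a bar (n = 3); vertical ranges differ by panel and do not start at 0. The square of SD1 is its lowest point in all 4 sdh panels, and all SD1 points of fip1 and fio1 lie above those of WT and SD2.

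In the cytochrome bc1 complex and cytochrome c, 2 of the 10 genes were lower in SD1 (median -0.18) and 1 was lower in SD2 (median -0.19). These shares were 20% and 10%, beside 23.7% and 14.3% of all probe sets. Within the arrays of each replicate number the SD1 median was -0.10, -0.33 and -0.16, and the SD2 median was -0.06, -0.33 and -0.10. All 10 fitted differences in SD1 and 9 in SD2 were below 0. With the replicate number added to the limma fit as a block, 6 of the 10 were lower in SD1 and 5 in SD2. Beside these stood 33% and 23.6% of all probe sets, so the standing of this group against the background depended on the fit. The core subunit gene qcr2 read 12.66, 12.90 and 12.65 in WT, 12.40, 12.41 and 12.37 in SD1, and 12.48, 12.26 and 12.45 in SD2. Both deletions lay below all WT arrays and overlapped each other. Its difference was -0.35 ± 0.093 in SD1 (adjusted p = 0.0166) and -0.34 ± 0.093 in SD2 (adjusted p = 0.0239). The cytochrome c1 gene cyt1 read 12.49, 12.57 and 12.28 in WT, 12.22, 11.88 and 11.98 in SD1, and 12.32, 11.99 and 12.03 in SD2. The SD1 arrays lay below the WT arrays and the SD2 arrays overlapped them, with differences of -0.42 ± 0.13 in SD1 (adjusted p = 0.0279) and -0.33 ± 0.13 in SD2 (adjusted p = 0.0798). The other 8 genes ranged from -0.35 to -0.02 in SD1 and from -0.29 to 0.05 in SD2. Among them, the Rieske iron-sulphur protein gene rip1 stood at -0.16 in SD1 (adjusted p = 0.286; -0.11, -0.22 and -0.14 within the replicate numbers) and the cytochrome c gene cyc1 at -0.20 (adjusted p = 0.57), its values spread from 13.31 to 13.89 within WT alone. With the replicate block rip1 and cyc1 were called lower in SD1 (limma with the block, adjusted p = 0.0276 and 0.0447). In the main fit the cyt1 call was lost on removal of WT array 1, WT array 2, SD1 array 2 or SD1 array 3 (adjusted p up to 0.0927). The qcr2 calls were lost on removal of SD1 array 3 in SD1 (adjusted p = 0.0572) and of WT array 2, SD2 array 2 or SD2 array 3 in SD2 (adjusted p up to 0.081).

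Subunits and assembly factors of cytochrome c oxidase gave different counts. None of the 7 measured nuclear-encoded subunit genes was called in either deletion, with medians of 0.00 in SD1 and -0.02 in SD2. Their differences ran from -0.17 (cox4) to 0.15 (cox6) in SD1 and from -0.10 to 0.19 in SD2, and the widest 95% intervals among them reached -0.44 and 0.48 in SD1 and -0.37 and 0.52 in SD2. Values of cox4 were 13.03, 12.87 and 12.77 in WT, 12.91, 12.62 and 12.63 in SD1, and 12.97, 12.68 and 12.72 in SD2. Those of cox6 were 11.87, 11.74 and 11.57 in WT, 12.09, 11.74 and 11.79 in SD1, and 12.15, 11.68 and 11.93 in SD2. In both genes the strains overlapped and array 1 was the highest of each strain.

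Of the 4 assembly genes, 2 were lower in both deletions. The gene cox10 (SPBC365.02C) encodes the farnesyltransferase that starts the conversion of haem B into haem A, the haem of this enzyme. It read 9.36, 9.52 and 9.27 in WT, 8.25, 8.41 and 8.21 in SD1, and 8.56, 8.51 and 8.50 in SD2. The 3 strains did not overlap. The fall was 2.14-fold in SD1 (log2 -1.10 ± 0.087, adjusted p = 8.7e-05) and 1.81-fold in SD2 (-0.86 ± 0.087, adjusted p = 0.00048), and it was the largest difference among the 69 genes in each deletion. The gene cox18 encodes an inner membrane insertase that, in S. cerevisiae, exports the tail of Cox2. It read 9.92, 10.39 and 10.04 in WT, 9.18, 9.53 and 9.27 in SD1, and 9.39, 9.26 and 9.55 in SD2, so that both deletions lay below all WT arrays and overlapped each other. The difference was -0.79 ± 0.14 in SD1 (adjusted p = 0.00246) and -0.72 ± 0.14 in SD2 (adjusted p = 0.00626). The copper chaperone gene cox17 stood at -0.36 in SD1 (adjusted p = 0.116) and -0.15 in SD2 (adjusted p = 0.547), and cox24 at -0.11 and -0.03.

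A wider list of respiratory assembly and expression factors, none of which fits the naming rule by its symbol in the array table, had 14 of 19 measured genes lower and 2 higher in SD1 (median -0.48), and 12 lower and 1 higher in SD2 (median -0.36). The list includes coq8, dlp1, dps1 and ppt1 given above. The largest falls in SD1 were those of mss51, which in S. cerevisiae activates translation of Cox1 (-0.79, adjusted p = 0.000513), and of the pentatricopeptide repeat gene ppr2 (-0.78, adjusted p = 0.000378), beside dlp1. In SD2 mss51 was at -0.68 (adjusted p = 0.00178) and ppr2 at -0.44 (adjusted p = 0.00873). Another pentatricopeptide repeat gene, ppr5, rose in SD1 (0.95 ± 0.26, adjusted p = 0.0175) and measured 0.73 in SD2 (adjusted p = 0.063). The rise of ppr5 was not called on removal of WT array 2, SD1 array 2 or SD1 array 3 (adjusted p up to 0.0681).

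Haem and iron-sulphur genes had calls in both directions. Of 8 measured haem synthesis genes, 4 were lower and 2 higher in SD1, and 2 were lower and 2 higher in SD2. The shares lower and higher were 50% and 25% in SD1, beside 23.7% and 19.5% of all probe sets. In SD2 they were 25% and 25%, beside 14.3% and 17.6%. The gene for the last enzyme, the ferrochelatase gene hem15, read 10.68, 10.96 and 10.29 in WT, 9.69, 9.12 and 9.37 in SD1, and 10.05, 9.66 and 9.72 in SD2, with both deletions below all WT arrays. Its difference was -1.25 ± 0.20 in SD1 (adjusted p = 0.00141) and -0.83 in SD2 (adjusted p = 0.0144). The gene for the first enzyme, hem1, went the other way, at 1.21 in SD1 (adjusted p = 0.000152) and 0.83 in SD2 (adjusted p = 0.00124). The oxidase gene hem13 was lower in SD1 (-1.07, adjusted p = 0.00662) and measured -0.52 in SD2 (adjusted p = 0.131). Among 9 iron-sulphur cluster genes, 2 were higher and 3 lower in SD1, and 2 higher and 1 lower in SD2. The shares were 22.2% and 33.3% in SD1, beside 19.5% and 23.7% of all probe sets. In SD2 they were 22.2% and 11.1%, beside 17.6% and 14.3%. The rises were those of nfs1, the cysteine desulphurase gene (1.02 in SD1, adjusted p = 0.000429; 0.97 in SD2, adjusted p = 0.00112), and of its partner isd11 (0.83 and 0.72, adjusted p = 0.000412 and 0.00142). For hem15 the SD2 call was lost on removal of SD2 array 2 (adjusted p = 0.054).

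Of the 13 measured ATP synthase subunit genes, 2 were lower in SD1 (median -0.09) and 1 was lower in SD2 (median -0.09). These shares were 15.4% and 7.69%, beside 23.7% and 14.3% of all probe sets. Within replicate numbers 1, 2 and 3 the median was -0.05, -0.23 and -0.07 in SD1, and 0, -0.31 and 0 in SD2. The catalytic head subunit gene atp1 (alpha) read 12.97, 13.07 and 12.90 in WT, 12.58, 12.59 and 12.53 in SD1, and 12.71, 12.58 and 12.64 in SD2. Both deletions lay below all WT arrays, and atp1 was 1.33-fold lower in SD1 (log2 -0.41 ± 0.071, adjusted p = 0.00198) and 1.27-fold lower in SD2 (-0.34 ± 0.071, adjusted p = 0.00751). Its partner in the head, the beta subunit gene atp2, was not called, at -0.09 in each deletion (adjusted p = 0.61 and 0.609), and its strains overlapped. The small membrane subunit gene atp18 read 11.74, 11.99 and 11.72 in WT, 11.46, 11.33 and 11.37 in SD1, and 11.68, 11.57 and 11.70 in SD2. It was lower in SD1 (-0.43 ± 0.090, adjusted p = 0.00535) and measured -0.16 in SD2 (adjusted p = 0.199), with no overlap between the strains. The other 11 subunit genes ranged from -0.25 to 0.06 in SD1 and from -0.19 to 0.06 in SD2.

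Assembly genes of ATP synthase included 2 that were higher in SD1. In S. cerevisiae, Atp11 and Atp12 are chaperones that bind the beta and alpha subunits of the head before they join. The values of atp11 were 10.79, 10.67 and 10.83 in WT, 11.11, 11.03 and 11.12 in SD1, and 10.91, 11.05 and 10.89 in SD2. Those of atp12 were 9.53, 9.56 and 9.50 in WT, 9.72, 9.70 and 9.80 in SD1, and 9.71, 9.66 and 9.76 in SD2. For each gene, both deletions lay above all WT arrays. The rise of atp11 was 1.25-fold in SD1 (log2 0.32 ± 0.077, adjusted p = 0.00953), with 0.18 in SD2 (adjusted p = 0.104). The rise of atp12 was 1.16-fold in SD1 (log2 0.21 ± 0.064, adjusted p = 0.0256), with 0.18 in SD2 (adjusted p = 0.0579). The gene atp10, needed in S. cerevisiae to assemble the membrane part, lay below all WT arrays in both deletions without passing the test (-0.34, adjusted p = 0.0872 in SD1; -0.43, adjusted p = 0.0513 in SD2). The atp12 call was lost on removal of WT array 1, WT array 3, SD1 array 1 or SD1 array 3 (adjusted p up to 0.107).

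Among the import genes, the TIM23 complex and its motor held most of the rises. Of the 7 genes 3 were higher and 1 lower in SD1 (median 0.16), and 3 were higher and 0 lower in SD2 (median 0.12). The largest rise among the 69 genes was that of tim44 (SPBC14C8.02), which encodes the adaptor that ties the motor to the channel. It read 10.17, 10.21 and 10.19 in WT, 10.86, 10.74 and 10.85 in SD1, and 10.73, 10.50 and 10.69 in SD2. The 3 strains did not overlap, with SD1 highest, and the rise was 1.54-fold in SD1 (log2 0.63 ± 0.080, adjusted p = 0.000436) and 1.37-fold in SD2 (0.45 ± 0.080, adjusted p = 0.00375). The motor gene tim16, for the partner of the J-protein Tim14, read 9.57, 9.36 and 9.53 in WT, 10.16, 9.82 and 9.99 in SD1, and 9.94, 9.92 and 9.76 in SD2. Both deletions lay above all WT arrays, and the difference was 0.50 ± 0.10 in SD1 (adjusted p = 0.00505) and 0.38 ± 0.10 in SD2 (adjusted p = 0.0235).

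The channel gene tim17 read 11.15, 11.32 and 11.25 in WT, 11.57, 11.41 and 11.58 in SD1, and 11.52, 11.48 and 11.54 in SD2. All arrays of the deletions lay above those of WT, with a difference of 0.28 ± 0.077 in SD1 (adjusted p = 0.0182) and 0.27 ± 0.077 in SD2 (adjusted p = 0.0277). The gene for the other channel subunit, tim23, was not called (0.16 in SD1, adjusted p = 0.0813; 0.10 in SD2, adjusted p = 0.286). In the opposite direction went tim21, which in S. cerevisiae links the complex to TOM and to the respiratory chain. It read 10.64, 10.68 and 10.56 in WT, 10.28, 10.34 and 10.19 in SD1, and 10.73, 10.42 and 10.62 in SD2, so that only SD1 stood apart (-0.36 ± 0.093, adjusted p = 0.014) and SD2 overlapped WT (-0.03, adjusted p = 0.808). Calls on tim17 were lost on removal of WT array 1 or 3 in each deletion, and also on removal of SD1 array 1 or 3 in SD1 (adjusted p up to 0.0767) or any 1 SD2 array in SD2 (adjusted p up to 0.0901). The SD2 call of tim16 was lost on removal of WT array 2 or 3 or SD2 array 1 or 2 (adjusted p up to 0.0779), and the SD1 call of tim21 on removal of SD1 array 3 (adjusted p = 0.0582).

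The TIM22 complex had 1 gene called in each direction. Its channel gene tim22 read 9.59, 9.50 and 9.67 in WT, 9.93, 10.13 and 10.10 in SD1, and 9.85, 9.96 and 10.02 in SD2. Both deletions lay above all WT arrays, by 0.47 ± 0.085 in SD1 (adjusted p = 0.00234) and 0.36 ± 0.085 in SD2 (adjusted p = 0.0131). Its partner gene tim54 read 10.89, 10.73 and 10.59 in WT, 10.56, 10.27 and 10.20 in SD1, and 10.73, 10.36 and 10.43 in SD2. Only the SD1 arrays were all below WT, by -0.39 ± 0.14 (adjusted p = 0.0443), and SD2 stood at -0.24 (adjusted p = 0.219). The SD2 call of tim22 was lost on removal of SD2 array 3 (adjusted p = 0.0557), and the SD1 call of tim54 on removal of WT array 1, WT array 2, SD1 array 2, SD1 array 3 or SD2 array 3 (adjusted p up to 0.146).

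The gene tim40 (SPAC57A10.11C), for the oxidoreductase that folds proteins between the membranes, had the largest fall among the 19 import genes of the 69. It read 10.78, 11.14 and 10.66 in WT, 10.01, 9.87 and 9.83 in SD1, and 10.32, 9.96 and 10.13 in SD2. Both deletions lay below all WT arrays and overlapped each other, at 1.94-fold lower in SD1 (log2 -0.96 ± 0.14, adjusted p = 0.000797) and 1.65-fold lower in SD2 (-0.72 ± 0.14, adjusted p = 0.00516). The gene for the oxidase that recharges it, erv1, was not called (0.07 in SD1, adjusted p = 0.575; 0.18 in SD2, adjusted p = 0.174). The 4 small TIM chaperone genes were not called either, with differences of 0.03 to 0.17 in SD1 and 0.07 to 0.24 in SD2. Of these, tim9 stood at 0.17 and 0.24 (adjusted p = 0.23 and 0.115) and tim10 at 0.10 and 0.15 (adjusted p = 0.29 and 0.145), with all SD2 arrays above all WT arrays in both.

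None of the 5 TOM genes was called in either deletion. Their differences ran from -0.15 (tom70, a receptor gene) to 0.07 (tom7) in SD1 and from -0.02 to 0.06 in SD2, and the widest 95% intervals reached -0.36 and 0.29 in SD1 and -0.31 and 0.33 in SD2. Values of tom70 were 12.61, 12.66 and 12.49 in WT, 12.48, 12.43 and 12.39 in SD1, and 12.73, 12.42 and 12.65 in SD2. All SD1 arrays lay below the WT arrays (adjusted p = 0.228), and the SD2 arrays overlapped them. For the pore gene tom40 the values of every strain spanned about the same range, from 11.98 to 12.39 over all arrays.

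Of 17 other measured genes of mitochondrial import and sorting, 2 were higher and 3 lower in SD1 (median -0.02), and 1 was higher and 3 lower in SD2 (median 0.01). The shares were 11.8% and 17.6% in SD1, beside 19.5% and 23.7% of all probe sets. In SD2 they were 5.88% and 17.6%, beside 17.6% and 14.3%. The nucleotide exchange factor gene of the import motor, mge1, read 10.19, 10.33 and 10.45 in WT, 11.40, 11.34 and 11.57 in SD1, and 11.07, 11.11 and 11.25 in SD2. The strains did not overlap, and the rise was 1.11 ± 0.096 in SD1 (adjusted p = 0.000114) and 0.82 ± 0.096 in SD2 (adjusted p = 0.000734). The motor's Hsp70 gene, ssc1, was not called (-0.18 in SD1, adjusted p = 0.184). The gene sam50, for the channel that inserts barrel proteins into the outer membrane, fell from 10.91, 11.41 and 10.86 in WT to 9.69, 9.79 and 9.69 in SD1 and 10.15, 9.96 and 10.13 in SD2, by 1.34 (adjusted p = 0.000199) and by 0.98 (adjusted p = 0.0014) on the log2 scale. Also lower were tam41, a gene of cardiolipin synthesis (-0.92 in SD1, adjusted p = 0.00738; -0.74 in SD2, adjusted p = 0.0254), and the processing peptidase gene oct1 (-0.57, adjusted p = 0.00592; -0.41, adjusted p = 0.0336). The SD2 calls of tam41 (adjusted p up to 0.0796) and oct1 (up to 0.104) were lost on removal of WT array 2, WT array 3, SD2 array 1 or SD2 array 2, and that of oct1 also on removal of SD1 array 3 or SD2 array 3.

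**Figure D4:**
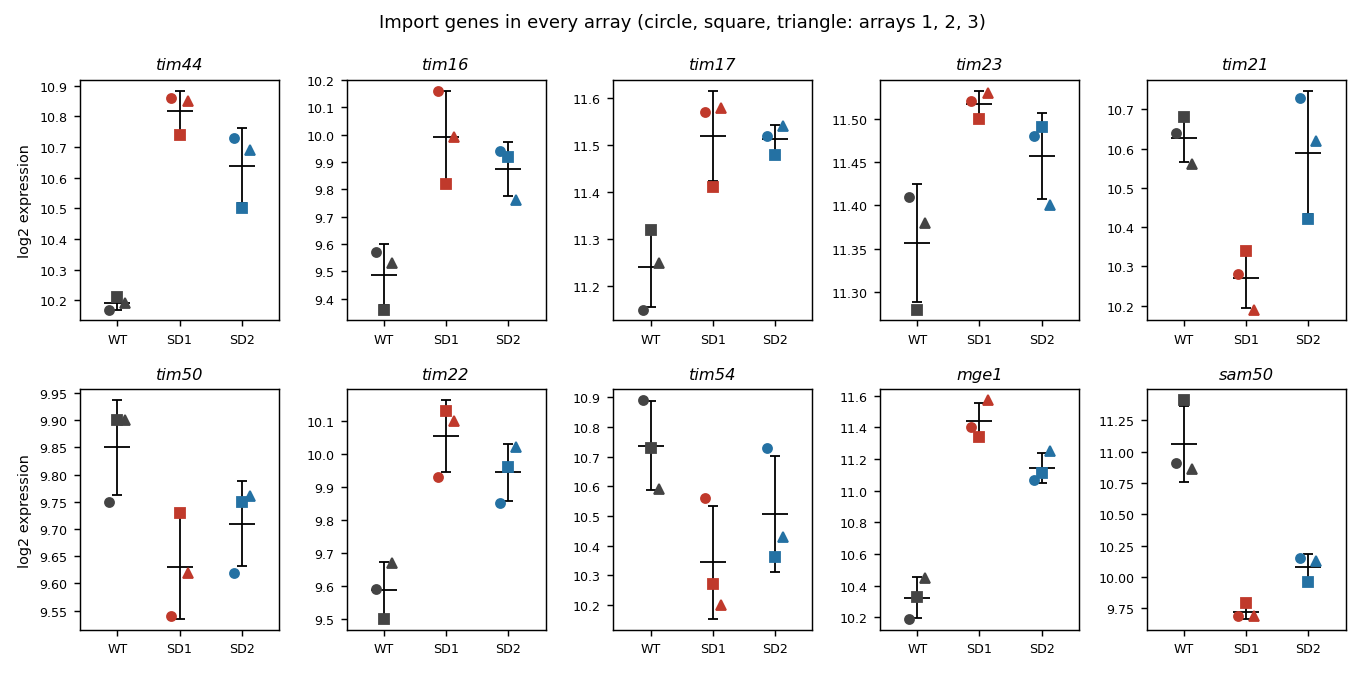
Log2 expression in every array of 8 TIM genes and of mge1 and sam50, with circles, squares and triangles for arrays 1, 2 and 3, the mean as a line and the SD as a bar (n = 3); each panel has its own vertical range, not from 0. All points of both deletions lie above WT for tim44, tim16, tim17, tim22 and mge1 and below WT for sam50, while tim21 is below WT in SD1 alone.

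The deletions were also set against each other. No gene of the 69 was called between SD2 and SD1 with limma, where 0.034% of all S. pombe probe sets were called higher and 0.136% lower in SD2, and the median difference was 0.04, as over all probe sets. At an unadjusted p under 0.05, 6 genes (8.7%) differed, all higher in SD2, beside 334 (11.4%) of all probe sets, of which 229 were higher in SD2. The coenzyme Q genes were above 0 in all 7 cases (0.12 to 0.39, median 0.24), with no overlap of SD2 and SD1 arrays in 5. Over the 69 genes all SD2 arrays lay above all SD1 arrays in 8 and below them in 2, beside 12.2% and 6.13% of all probe sets. The difference was 0.36 for coq6 (adjusted p = 0.206), 0.39 for coq7 (adjusted p = 0.264) and 0.32 for tim21 (adjusted p = 0.264), and for sdh2 it was 0.44 (adjusted p = 0.475). The 95% interval was 0.18 to 0.53 for coq6 and -0.03 to 0.9 for sdh2, so the absence of calls does not show that the deletions were alike. Each of the 11 genes lower in both deletions and the 4 higher in both had the larger difference from WT in SD1, so that SD2 arrays had means between WT and SD1. For qcr2 (-0.35 and -0.34) and tim17 (0.28 and 0.27) the deletions barely differed. The matching share over all probe sets is not given here. Over all probe sets too, more were called in SD1 (23.7% lower, 19.5% higher) than in SD2 (14.3% and 17.6%), so this order is not shown to be particular to the 69 genes. The 8 genes lower and 2 genes higher in SD1 alone were not shown to differ between the deletions.

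Replicate numbers set arrays apart more than strains did in some groups. In 32 of the 69 genes (46.4%) the means of the 3 replicate numbers spread more widely than the means of the 3 strains, as in 33.1% of all probe sets. This held for all 7 cytochrome c oxidase subunit genes, 9 of 13 ATP synthase subunit genes and 7 of 10 genes of the bc1 complex and cytochrome c, and for none of the 7 coenzyme Q, 7 TIM23 and 4 succinate dehydrogenase genes. Array 1 was the highest of its strain for 40 of the 69 genes in WT (58.0%), for 52 in SD1 (75.4%) and for 51 in SD2 (73.9%), beside 33.4%, 38.0% and 36.4% of all probe sets. For cyc1 the values on arrays 1, 2 and 3 were 13.89, 13.47 and 13.31 in WT, 13.80, 13.14 and 13.14 in SD1, and 13.88, 13.17 and 13.26 in SD2. In each strain array 1 stood above the others by more than the strains differed. Arrays with the same number also shared exactly equal values in the deposited table (3934 to 4218 per pair for number 1, 74 to 80 for number 2 and 168 to 353 for number 3, against at most 4 between numbers), and at most 5 of these in a pair were in the 69 genes.

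**Figure D5:**
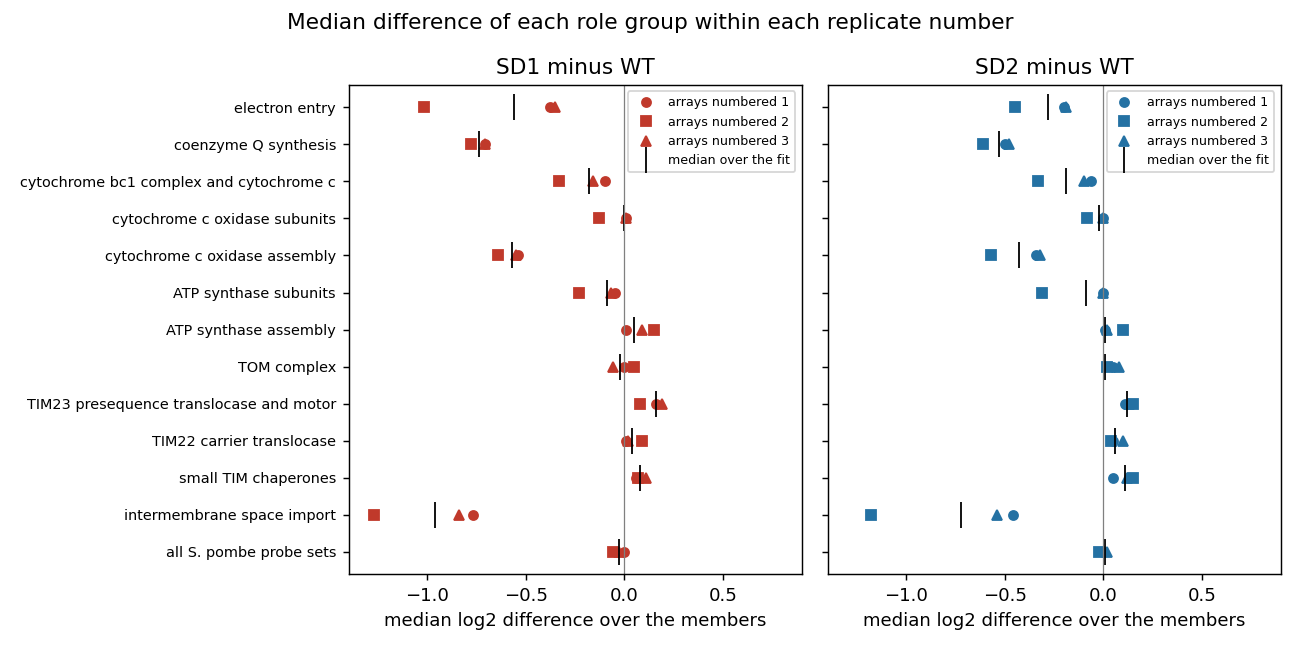
Median log2 difference from WT over the genes of each role group, computed within the arrays numbered 1 (circles), 2 (squares) and 3 (triangles), with the median over the fit as a vertical bar, for SD1 (left) and SD2 (right). Arrays numbered 2 gave the lowest medians in both deletions for electron entry (succinate dehydrogenase), coenzyme Q synthesis and the bc1 complex. The same held for subunits and assembly factors of cytochrome c oxidase, ATP synthase subunits and tim40. The coenzyme Q medians of the 3 numbers lie close together.

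Other gene groups moved in the same arrays. The oxidative enzymes of the citrate cycle and pyruvate dehydrogenase had 6 of 11 measured genes lower and 1 higher in SD1, and 6 lower in SD2; the fumarase gene fum1, for example, was at -0.53 in SD1 (adjusted p = 0.00919) and -0.48 in SD2 (adjusted p = 0.0197). Of 12 glucose-repressed genes 9 were lower in each deletion, and their mean level was 11.29 to 12.06 on the WT arrays, 8.99 to 9.53 on the SD1 arrays and 8.85 to 9.17 on the SD2 arrays. Of 5 markers of M cells, 5 were lower in SD1 and 2 in SD2, with mean levels of 9.05 to 9.50 in WT, 7.82 to 8.32 in SD1 and 8.48 to 8.93 in SD2. Of 4 markers of P cells 1 was higher in each deletion, with mean levels of 7.81 to 7.95 in WT, 8.02 to 8.12 in SD1 and 8 to 8.16 in SD2. That marker was map2 (1.11 in SD1, adjusted p = 0.000261; 0.96 in SD2, adjusted p = 0.00106). The median difference over the 4 was -0.09 in SD1, with 3 below 0, and 0.02 in SD2. The 3' minus 5' signal of the S. pombe 18S rRNA control probe sets was -1.53 to -0.90 in WT, -0.44 to -0.33 in SD1 and -0.52 to -0.29 in SD2. For 28S rRNA it was -0.47 to -0.08 in WT, 0.17 to 0.62 in SD1 and 0.13 to 0.36 in SD2. The same measure for act1 was 0.23 to 0.39, 0.26 to 0.32 and 0.30 to 0.38. The part of glucose repression, of mating type and of RNA ends in the values of the 69 genes was not tested. The SD2 call of fum1 was lost on removal of WT array 2, SD2 array 2 or SD2 array 3 (adjusted p up to 0.0699).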

How the data were processed

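RNA of the 9 samples was measured on Affymetrix arrays. Per the labels' protocols, total RNA was extracted with Trizol and 500 ng was labelled with a kit for 3' ends. The table deposited by the authors holds log2 expression, for which the submitters' processing notes name RMA and Partek. Versions, settings and joint normalization were not given in the sources used here. The values were used as deposited. Arrays have no depth; their number limits precision.

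Names came from the platform's annotation: 2917 S. pombe probe sets with 1 symbol, 20 with several, and 2601 for S. cerevisiae. The 69 members were matched to ASM294v3 by gene number. Differences came from limma 3.58.1 (R 4.3.3), with 1 mean per strain over all 9 arrays, eBayes and Benjamini-Hochberg adjustment over 2937 probe sets. Tested on simulated data for SD1 versus WT over the 2937 probe sets, the fit recovered 51.5% of 200 genes changed by 0.5 and 91% of 200 changed by 1 (log2).

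The labels call the arrays biological replicates; nothing in them says that cultures were separate, and p-values measure the spread between these arrays. Strains share replicate numbers, which were not taken to pair the arrays.

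The members, role groups and comparison lists were chosen with earlier results of these data known, and after the table was read 1 gene was dropped from a list and 1 renamed because their symbols name other genes. The text names every called member, 2 uncalled members of a role group with no call, and up to 4 called genes of each comparison list; other genes named were chosen after their values were seen. Alternatives were the replicate block, array centring, quantile normalization, trend with robust estimation, a filter on dim probe sets, strains compared alone, adjustment over the whole table, and leaving out arrays. The planned promoter motif search was not run, and no sequences are given.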

Additional observations from a re-analysis of the deposited data

How the results depend on the processing

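Leaving out arrays 1 at a time, or all 3 arrays of a replicate number (chosen after seeing the data), gave 8 to 25 genes lower and 1 to 6 higher in SD1 and 2 to 16 lower and 0 to 4 higher in SD2, lowest without the 3 arrays numbered 3, which leaves 6 arrays; the SD2 minus SD1 median ranged from -0.03 to 0.12. Deviations from strain means correlated at 0.79 to 0.87 between arrays numbered 1, 0.33 to 0.62 for number 3 and -0.1 to 0.28 for number 2. Only the 3 arrays numbered 1 correlated best with their own number. The 3 deviations of a strain sum to 0, so a large deviation of array 1 makes arrays 2 and 3 look alike. These correlations therefore cannot show whether numbers 2 and 3 mark pairs. The equal values given above were shared within all 3 numbers, and what the numbers mark was not given in the sources used here. The main fit did not take the numbers as pairs, so spread that goes with the number stays in its error. With the replicate block the counts were 8 higher and 28 lower in SD1 (26.8% and 33% of all probe sets) and 7 higher and 21 lower in SD2 (26% and 23.6%). The block moved the lower counts most in the bc1 complex and cytochrome c (6 of 10 genes in SD1, 5 in SD2) and in ATP synthase subunits (4 and 3 of 13). The block also called tim9 higher in SD1 and SD2 (limma with the block, adjusted p = 0.031 and 0.0113) and tim10 higher in SD2 (adjusted p = 0.0427). With it the SD1 call of coq10 was lost, and between the deletions 1 gene, coq6, was higher in SD2 (limma with the block, adjusted p = 0.0379). Quantile normalization gave 17 lower in SD2. Centring each array on its median gave an SD2 minus SD1 median of 0.01 and ended the SD1 calls of coq10, cyt1, sdh3, tim54 and tim21 and the SD2 call of tim16. Comparing strains alone or adjusting over the whole table ended calls near the threshold (coq10, cyt1, sdh3, tim54 and atp12 in SD1, qcr2 and tim17 in SD2). Uncalled SD2 differences changed sign for tom70 (0.00 after quantile normalization, -0.05 to 0.1 with 1 array left out), cyc1 (-0.34 to 0.05 with 1 array left out, above 0 on removal of WT array 1 or SD2 array 2), tim21 (-0.11 to 0.05, above 0 on removal of SD2 array 2) and frp1 (-0.1 to 0.76, below 0 on removal of WT array 2). The cause was not tested, except that fewer arrays leave fewer degrees of freedom. No called difference changed sign. Taking the brightest probe set per gene changed nothing, since each gene had 1. All of these genes lay above the S. cerevisiae yardstick, which bears only on low signal. Whether high signal narrowed differences was not tested.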
